A study of Mus musculus with 8 samples.

Results

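The cryolesion response of the mouse cortex was measured across both genotypes of the study by setting 8 cryolesioned animals against 8 control animals, which together are all 16 animals measured. A cryolesion is a focal freeze injury made at the brain surface. Animals were put in their state by the sample-type label of each array channel, and no measured value entered that choice. The groups were 4 cryolesioned animals deficient in microglia-derived Il6, 4 cryolesioned floxed animals, 4 control animals with the same Il6 deficiency and 4 control floxed animals. All 16 samples were total RNA of the right fronto-parietal cortex, dissected on the side of the lesion in the labels' wording and snap-frozen. Not given in the sources used here are the Cre driver, the age and recorded sex of the animals, the time between lesion and dissection and any handling of the controls, and "control" means no more than an animal so labelled. In bulk cortex, fewer cells of a type and less RNA per cell cannot be told apart.

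A freeze injury kills tissue at its core and opens the blood-brain barrier around it. Microglia, the resident phagocytes of the brain, then lose part of their resting programme, blood monocytes and neutrophils can enter, and astrocytes become reactive and form a border around the damage. Cytokines of the IL-6 family act through the shared receptor gp130 and the transcription factor STAT3, chemokines recruit leukocytes, and interferons raise a set of antiviral genes.

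RNA of 2 animals, 1 labelled with Cy5 and 1 with Cy3, was hybridised to each of 8 Agilent arrays. On 4 arrays a cryolesioned animal shared the array with a control animal of the other genotype. A pair of these arrays, with opposite dyes, held floxed cryolesioned and Il6-deficient control animals (the floxed-lesion side of the design), and a further pair held Il6-deficient cryolesioned and floxed control animals (the deficient-lesion side). The remaining 4 arrays paired animals of the same state, 2 arrays on a lesion side and 2 on a control side. In the fit over all arrays the pooled difference, cryolesioned minus control, drew on each mixed array with a weight of 0.25 and on the same-state arrays with a weight of 0, so 4 cryolesioned and 4 control animals set its size and the other 8 entered only its error. Those other 8 animals therefore served as a separate comparison, given at the end.

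The share of probes well above background was 61.0% to 67.4% across channels. Il6 itself was near the limit of detection: its brighter probe read 6.014, 6.201 and 6.835 (lowest, median and highest log2 level) in cryolesioned animals, of which 3 of 8 were above background, against 5.784, 5.909 and 6.003 in controls, of which 0 of 8 were. The states did not overlap (difference 0.40, exact two-sided permutation p = 0.000155, the smallest the 12870 splits can give), which bounds the rise at only 1.25-fold or more. By Xist and Y-linked transcripts, 4 of 8 controls were female (1 of 4 Il6-deficient and 3 of 4 floxed controls), and 0 of 8 cryolesioned animals were. Sex is thus partly tied to state, and with sex as a covariate 2441 features were called, 1313 of them higher. On the mixed arrays the only female animals were floxed controls 3 and 4, so sex is also tied to the side of the design. Of 603 features on the X and Y chromosomes 99 were called in the main fit, against 3492 of 29362 over all. The lesion response also differed in size between animals. Its median over the strongest rises described below, relative to the control median, was 0.92 to 1.24 on the log2 scale in the 4 Il6-deficient cryolesioned animals and 0.97, 1.65, 1.84 and 2.02 in the 4 floxed cryolesioned animals. Floxed cryolesioned animals 1 and 2, at 1.84 and 2.02, were the animals on the floxed-lesion side. They are among the animals whose arrays set the pooled estimate, and so helped select these rises.

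Cryolesion changed the transcript level of 3492 of 29362 tested features (11.9%) at a Benjamini-Hochberg adjusted p below 0.05 in limma. Of these, 1768 rose (6.02% of those tested) and 1724 fell (5.87%). The rises were larger: 391 rose at least 2-fold but only 84 fell that much, and the median change was 0.57 among rises and -0.50 among falls on the log2 scale, against -0.01 over all tested features. All 4 mixed arrays gave the same sign for 3229 of the 3492. The calls were made from these same arrays, so this agreement is largely built in. The count depends on single arrays: leaving out 1 array gave between 928 calls (without array 2 of the deficient-lesion side) and 5179 (without array 2 of the control side), and it was 2226 without array 1 of the control side, 1970 without array 2 of the lesion side, and 1238 and 1004 without arrays 1 and 2 of the floxed-lesion side. The levels of the 8 cryolesioned and the 8 control animals did not overlap for 840 of the rises and 384 of the falls, and for 332 and 45 of those of at least 2-fold. Over all tested features, called or not, 1457 (4.96%) did not overlap. The animals of the mixed arrays, which set the size of each call, are among those compared. Part of the separation among the calls is therefore built in as well.

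**Figure D1:**
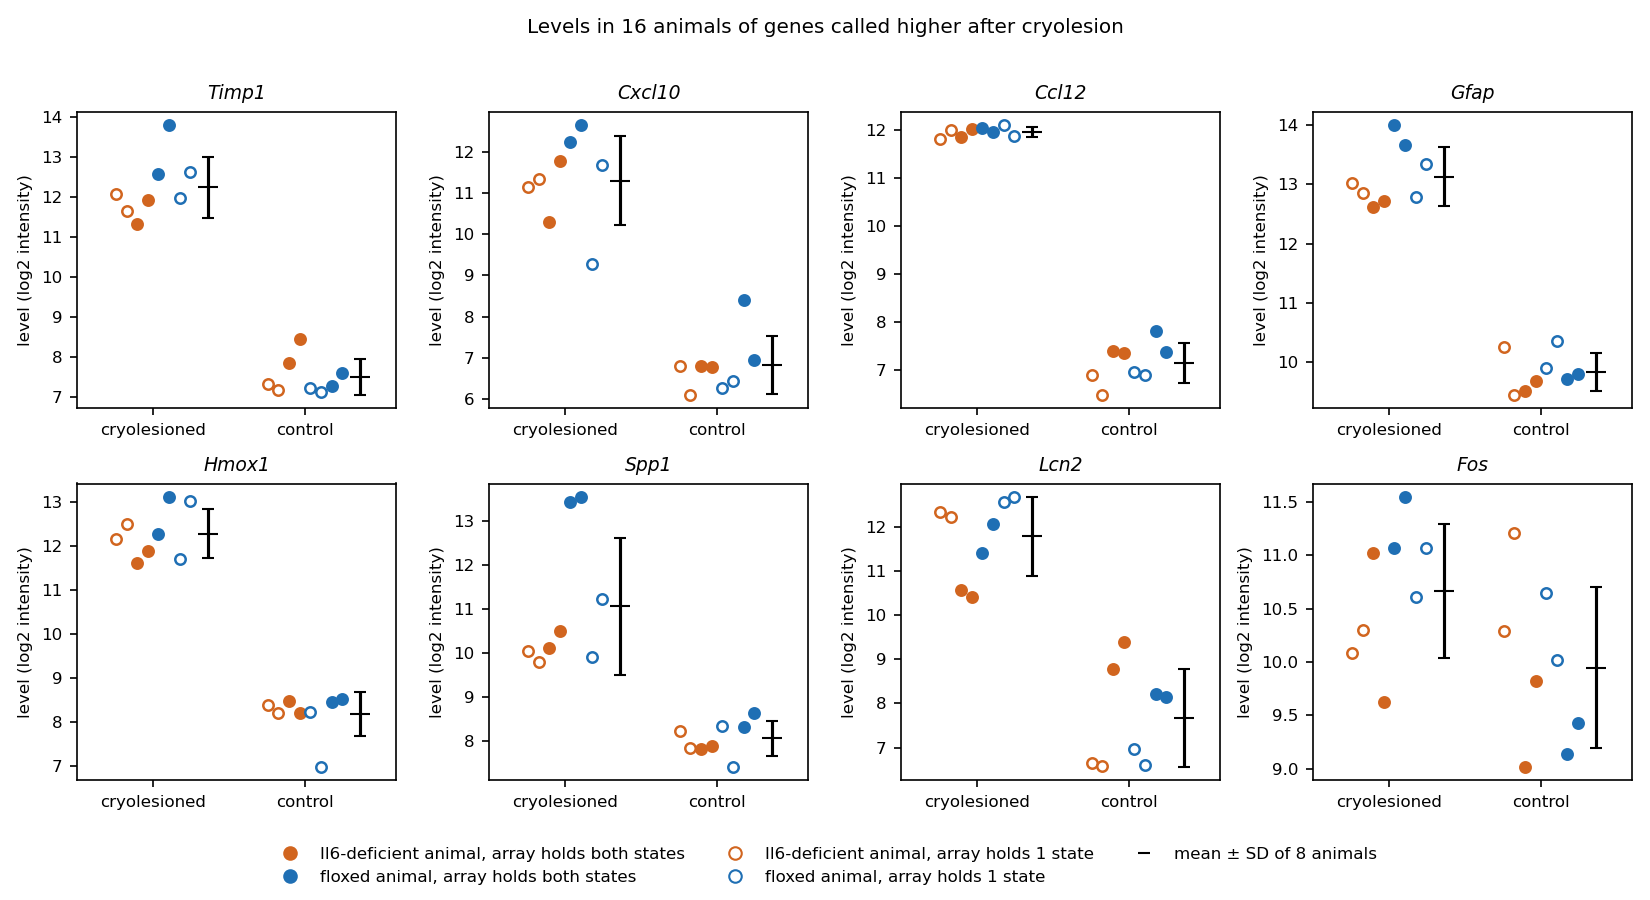
Level of 8 genes that rose after cryolesion, in log2 intensity, for each cryolesioned animal (left) and each control animal (right). Filled points are animals whose array held both states, open points animals whose array held 1 state, colour gives the genotype, and the bar is the mean with its SD over 8 animals. Ccl12 read 11.83 to 12.11 in cryolesioned animals and 6.48 to 7.81 in controls without overlap, whereas the Fos points of the 2 states overlap.

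Timp1, Cxcl10 and Ccl12 had the strongest rises of all named genes. Timp1, a secreted inhibitor of matrix metalloproteinases that lies on the X chromosome, had levels of 11.31, 12.03 and 13.80 (lowest, median, highest) in cryolesioned animals, against 7.13, 7.29 and 8.44 in controls. Every cryolesioned animal was above every control, and the 4 mixed arrays gave log2 ratios of 4.75 and 5.36 on the floxed-lesion side and 4.06 and 4.32 on the deficient-lesion side. The pooled rise was 4.62 ± 0.18 on the log2 scale (SE, adjusted p = 0.00016 in limma). Ccl12, a chemokine that recruits monocytes, was at 11.83, 11.99 and 12.11 in cryolesioned animals against 6.48, 7.15 and 7.81 in controls. Its rise was 4.50 ± 0.12 (adjusted p = 2.2e-05). Gfap, the intermediate filament of reactive astrocytes, had levels of 12.62, 12.94 and 14.003 in cryolesioned animals and 9.45, 9.76 and 10.36 in controls. It rose by 3.58 ± 0.18 (adjusted p = 0.00032), and the states did not overlap.

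Tubb6, a beta-tubulin isotype raised in injured neurons, rose by 4.14 ± 0.23, and Tgm1, a transglutaminase that cross-links proteins, by 3.90 ± 0.12. Hmox1, the enzyme that degrades heme, read 11.61, 12.22 and 13.12 in cryolesioned animals against 6.97, 8.30 and 8.53 in controls and rose by 3.81 ± 0.34. Spp1, osteopontin, a secreted product of activated phagocytes, was the least even of these, at 9.78, 10.30 and 13.54 in cryolesioned animals and 7.41, 8.06 and 8.64 in controls. Its ratios were 5.60 and 5.64 on the floxed-lesion side but 1.81 and 1.84 on the deficient-lesion side, and the pooled rise was 3.72 ± 0.50 (adjusted p = 0.0065).

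Among the other strongest rises were Emp1, a membrane protein of reactive astrocytes (3.48 ± 0.39), and Lilrb4a, an inhibitory receptor of myeloid cells (3.47 ± 0.20). Cd44, the hyaluronan receptor, rose by 3.45 ± 0.21 and Lgals3, galectin-3 of phagocytes, by 3.29 ± 0.19. Ptx3, a soluble pattern-recognition protein, was above background in 8 of 8 cryolesioned animals and in 0 of 8 controls. Its mean level was 9.58 in cryolesioned animals against 5.93 in controls, which makes the rise at least 11.9-fold (adjusted p = 0.0002).

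**Figure D2:**
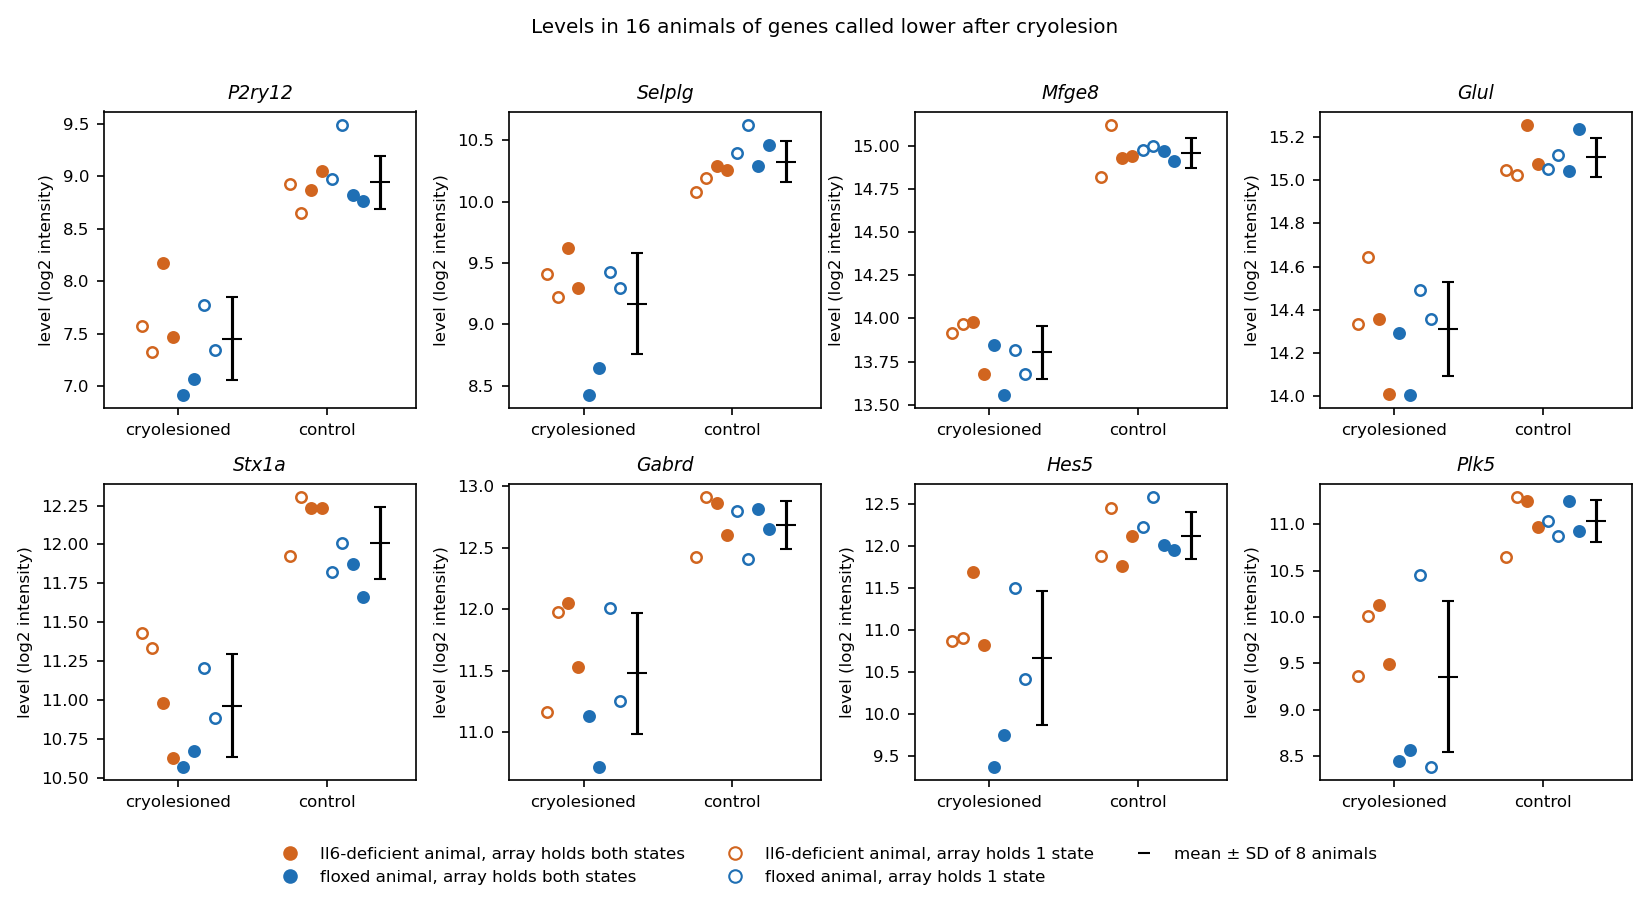
Level of 8 genes that fell after cryolesion, in log2 intensity, for each cryolesioned animal (left) and each control animal (right). Point fill, colour and bars are as for the genes that rose. Mfge8 read 13.56 to 13.98 in cryolesioned animals and 14.82 to 15.12 in controls, and Gabrd 10.72 to 12.05 against 12.41 to 12.91.

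Plk5, a polo-like kinase of postmitotic brain cells, had levels of 8.39, 9.43 and 10.45 in cryolesioned animals against 10.65, 11.001 and 11.29 in controls and fell by 1.94 on the log2 scale (SE 0.30, adjusted p = 0.011). Frzb, a secreted antagonist of Wnt ligands, read 6.93, 7.13 and 7.98 in cryolesioned animals and 8.79, 8.99 and 9.44 in controls, and fell by 1.86 (SE 0.13, adjusted p = 0.00095). The states did not overlap for either gene. Camkk2, a kinase that activates calmodulin-dependent kinases, fell by 1.67, and Hes5, a target gene of Notch, by 1.55, with ratios of -2.40, -2.37, -0.32 and -1.13 on the 4 mixed arrays. Others in this group were Gpr17, a receptor of oligodendrocyte precursors about to differentiate (-1.54), Etnppl, an astrocyte enzyme of phosphoethanolamine breakdown (-1.51), and Gkn3, a gene of arterial endothelium in brain (-1.39). Of neuronal genes, Itpka, an inositol trisphosphate kinase of dendritic spines, changed by -1.49, Gabrd, the delta subunit of the GABA-A receptor, by -1.37 and Lamp5, a membrane protein of cortical neurons, by -1.36.

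**Figure D3:**
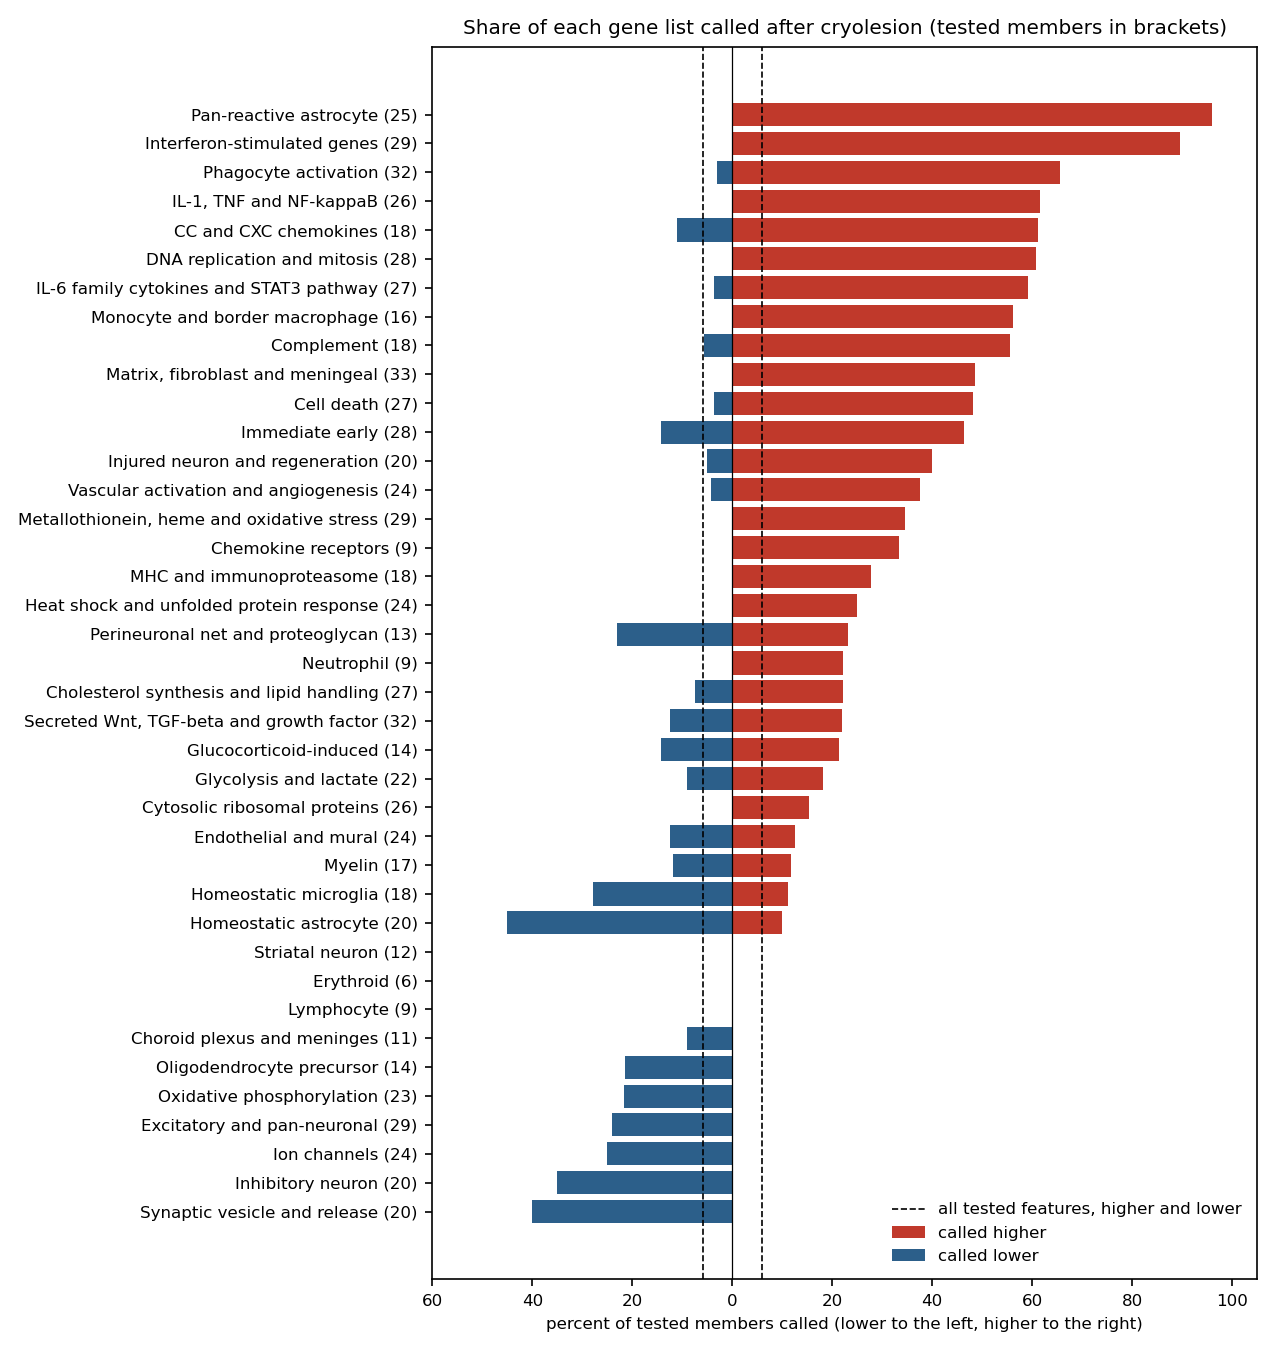
Share of the tested members of 39 gene lists that were called higher (right) or lower (left) after cryolesion, in percent, with the number of tested members in brackets. Dashed lines mark the 6.02% of all tested features called higher and the 5.87% called lower. Astrocyte reactivity and interferon-stimulated lists lead on the right, homeostatic astrocyte and synaptic lists on the left.

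In the IL-6 and STAT3 list, 16 of 27 tested members rose and 1 fell, with a median change of 0.72. The receptors and transducers came with their targets. Osmr, the oncostatin M receptor, had levels of 9.70, 10.25 and 10.85 in cryolesioned animals against 7.25, 7.49 and 7.68 in controls and rose by 2.73 ± 0.15. Stat3 read 11.63, 12.08 and 12.64 in cryolesioned animals and 10.27, 10.47 and 10.58 in controls, a rise of 1.58 ± 0.14. Neither gene overlapped between states. Among ligands of the family, Il11 rose by 1.49 ± 0.26, Clcf1 by 0.67 ± 0.11 and Osm, oncostatin M, by 0.70 ± 0.14, while Cntfr, the receptor subunit for ciliary neurotrophic factor, fell by 0.30. Genes placed in the list as targets of the pathway rose most: Cebpd, a transcription factor of acute inflammation (3.54 ± 0.17), Serpina3n, a serine protease inhibitor (3.20 ± 0.20), and Bcl3, a nuclear partner of NF-kappaB (3.12 ± 0.25).

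Socs3, the feedback inhibitor of gp130 signalling, rose by 1.92 ± 0.18 (adjusted p = 0.0020), with levels of 10.39, 11.64 and 12.43 in cryolesioned animals and 8.23, 8.62 and 10.12 in controls. The 250 bases upstream of its RefSeq start (GRCm38.p6, chr11:117969367-117969616, minus strand, printed 5′ to 3′) are shown because they hold the STAT motif TTCNNNGAA. Capitals mark the match, whose first base lies 154 bases before the start.
Socs3: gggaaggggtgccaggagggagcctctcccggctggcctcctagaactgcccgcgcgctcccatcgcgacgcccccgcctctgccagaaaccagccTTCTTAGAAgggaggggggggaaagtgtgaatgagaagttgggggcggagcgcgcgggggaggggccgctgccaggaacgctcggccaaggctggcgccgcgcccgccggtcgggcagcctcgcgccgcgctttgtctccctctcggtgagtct
The motif, which reads the same on both strands, was present upstream of 1 of the 12 IL-6 and STAT3 genes called higher that have a promoter in the table (8.33%) and of 8.13% of 27025 genes in all.

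Of 18 tested CC and CXC chemokines 11 rose and 2 fell, with a median change of 1.75. Of 9 tested receptors 3 rose and 0 fell (median 0.29), and 6 rose in the separate-channel fit, which reads each channel as its own sample. That fit called more features in all, 3711 higher and 4709 lower of 29358, against 1768 and 1724 in the main fit. Its list counts, here and below, are to be read against those totals. Ccl2, the main ligand of Ccr2, had levels of 10.9997, 11.12 and 12.15 in cryolesioned animals against 6.13, 6.80 and 7.99 in controls and rose by 3.86 ± 0.09. Ccl4 and Ccl3, which attract monocytes and lymphocytes, rose by 3.74 ± 0.26 and 2.14 ± 0.22, and Ccl7 by 3.19 ± 0.08. Cxcl1, a neutrophil attractant, was above background in 8 of 8 cryolesioned animals and 0 of 8 controls, with mean levels of 8.39 in cryolesioned animals and 6.05 in controls, a rise of at least 5.01-fold (adjusted p = 0.001). The fall in Cxcl12, the constitutive chemokine of endothelium and neurons, was 1.31 (SE 0.09), with levels of 9.63, 10.04 and 10.41 in cryolesioned animals and 11.17, 11.51 and 11.60 in controls. Among receptors, Ccr2, of monocytes, rose by 0.69 ± 0.13, and was above background in 8 of 8 cryolesioned animals but in only 1 of 8 controls.

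The IL-1, TNF and NF-kappaB list had 16 of 26 tested members higher and 0 lower (median 0.83). Receptors led it, with Tnfrsf12a, the receptor for TWEAK, at 2.89 ± 0.34 and Tnfrsf1a, the main TNF receptor, at 2.12 ± 0.18. Il33, an alarmin of glia, rose by 1.74 ± 0.16, and Il1r2, the decoy receptor for IL-1, by 1.48 ± 0.16. Il1b read 6.82, 7.32 and 7.89 in cryolesioned animals against 5.99, 6.36 and 6.39 in controls, close to background, and rose by 0.87 ± 0.15.

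In the interferon-stimulated list 26 of 29 tested members rose and 0 fell, with a median of 1.13. Gbp2, an interferon-inducible GTPase, had levels of 8.90, 9.59 and 11.76 in cryolesioned animals against 7.23, 7.70 and 8.13 in controls and rose by 2.33 ± 0.33. Isg15, a ubiquitin-like modifier, read 10.32, 11.51 and 12.43 in cryolesioned animals and 9.03, 9.40 and 10.14 in controls, and rose by 1.82 ± 0.21. Neither overlapped. Iigp1 (1.80 ± 0.33) and Gbp3 (1.64 ± 0.20), GTPases of the same kind, rose too, as did Irf9 (1.22 ± 0.13), Irf7 (1.36 ± 0.20) and Stat2 (0.64 ± 0.14), factors that drive the programme. The size varied by array: Isg15 ratios were 2.29 and 2.36 on the floxed-lesion side and 0.72 and 1.91 on the deficient-lesion side. Cxcl10, the interferon-inducible ligand of Cxcr3, belongs to the chemokine list and had the second strongest rise of all named genes, 4.51 ± 0.55 (adjusted p = 0.0049), at 9.27, 11.50 and 12.65 in cryolesioned animals and 6.10, 6.79 and 8.40 in controls.

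The upstream 250 bases of Cxcl10, Isg15 and Rsad2, an antiviral enzyme that rose by 1.17 ± 0.17, are shown because each holds the interferon-stimulated response element GAAANNGAA on either strand (RefSeq, GRCm38.p6, all minus strand, 5′ to 3′). Capitals mark the matches. The regions are chr5:92348890-92349139 for Cxcl10, chr4:156200819-156201068 for Isg15 and chr12:26456453-26456702 for Rsad2. The first matching base lies 213 bases before the start in Cxcl10 and 119 in Rsad2, and Isg15 has 3 overlapping matches between 78 and 66 bases before it.
Cxcl10: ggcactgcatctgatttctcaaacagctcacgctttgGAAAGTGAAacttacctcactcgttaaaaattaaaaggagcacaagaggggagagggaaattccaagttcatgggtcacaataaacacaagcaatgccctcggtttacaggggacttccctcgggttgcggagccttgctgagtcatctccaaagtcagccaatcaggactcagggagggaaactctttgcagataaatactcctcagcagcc
Isg15: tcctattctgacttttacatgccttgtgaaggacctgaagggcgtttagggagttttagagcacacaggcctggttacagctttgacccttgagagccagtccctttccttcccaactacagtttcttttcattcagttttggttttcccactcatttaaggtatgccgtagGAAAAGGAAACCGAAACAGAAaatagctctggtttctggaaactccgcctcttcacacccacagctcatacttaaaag
Rsad2: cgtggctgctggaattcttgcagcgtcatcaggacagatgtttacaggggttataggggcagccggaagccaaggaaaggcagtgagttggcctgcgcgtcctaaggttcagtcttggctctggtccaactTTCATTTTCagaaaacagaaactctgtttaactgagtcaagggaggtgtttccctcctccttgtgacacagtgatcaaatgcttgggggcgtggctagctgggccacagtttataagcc
The element was found upstream of 10 of the 21 interferon-stimulated genes called higher that have a promoter in the table (47.6%), against 8.18% of all 27025 genes. The same 21 genes also exceeded all genes for the AP-1 motif TGANTCA (33.3% against 7.82%) and the STAT motif (28.6% against 8.13%). So did the NF-kappaB motif GGGRNNYYCC (19.0% against 8.23%) and the antioxidant motif TGACNNNGC (19.0% against 11.5%). The C/EBP motif TTGCNNAA (4.76% against 10.8%) and the cyclic AMP motif TGACGTCA (0% against 1.77%) were rarer. The list holds known interferon-stimulated genes, so these shares test nothing.

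In the complement list 10 of 18 tested members rose and 1 fell (median 0.45). C4b, a classical pathway component, had levels of 11.98, 12.35 and 12.56 in cryolesioned animals against 9.80, 10.03 and 10.64 in controls and rose by 2.02 ± 0.13. C5ar1, the receptor for the fragment C5a, rose by 1.72 ± 0.12, and the 3 chains of C1q rose less, C1qb by 0.99 ± 0.08, C1qa by 0.79 ± 0.08 and C1qc by 0.66 ± 0.08. In the phagocyte activation list 21 of 32 rose and 1 fell (median 0.75). The coreceptor Cd14 rose by 2.57 ± 0.19, Tlr2 by 1.82 ± 0.11 and the lysosomal marker Cd68 by 1.46 ± 0.13. Apoe, the lipid carrier secreted mainly by astrocytes, was the member that fell, at 15.27, 15.57 and 16.27 in cryolesioned animals against 15.996, 16.32 and 16.59 in controls (change -0.98 ± 0.07, adjusted p = 0.00089), with overlap between states.

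Resting microglial genes split. Of 18 tested homeostatic microglia markers 2 rose and 5 fell (median -0.21), and with sex as a covariate 1 rose and 3 fell. P2ry12, the ADP receptor that guides microglial processes, had levels of 6.92, 7.41 and 8.18 in cryolesioned animals against 8.65, 8.90 and 9.49 in controls and fell by 1.47 (SE 0.26, adjusted p = 0.016). Slc2a5, the fructose transporter of microglia, fell by 1.39, Selplg, the selectin ligand, by 1.33 and Tmem119, a microglia-specific membrane protein, by 0.57. Fcrls, an Fc receptor-like gene of microglia, went the other way, at 9.86, 10.07 and 10.71 in cryolesioned animals and 8.87, 8.94 and 9.44 in controls (1.34 ± 0.06, adjusted p = 0.00026), and did not overlap. Cx3cr1, the fractalkine receptor, was called at 0.36 ± 0.08 although its ratios were 1.35 and 1.09 on the floxed-lesion side and -0.84 and -0.16 on the deficient-lesion side, and it was not called with sex as a covariate. The summed level of the 18 markers was 16.52 to 17.10 in cryolesioned animals and 16.57 to 17.08 in controls.

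Markers of monocytes and border macrophages rose in part, and no marker of lymphocytes or red cells passed the test. Of 16 tested monocyte and border macrophage markers 9 rose and 0 fell (median 0.61), and their summed level was 13.30 to 14.15 in cryolesioned animals against 12.44 to 12.78 in controls. S100a4 rose by 2.66 ± 0.20, Chil3 by 1.89 ± 0.31 and Plac8 by 1.17 ± 0.12. Of 9 tested neutrophil markers 2 rose: S100a9 read 9.24, 10.20 and 11.46 in cryolesioned animals against 7.05, 7.24 and 7.90 in controls (2.48 ± 0.22), and its partner S100a8 rose by 2.24 ± 0.26. The median change of the 9 neutrophil markers was only 0.17. Their summed level was 14.18 to 15.08 in cryolesioned animals and 14.03 to 15.14 in controls, and it overlapped. The neutrophil granule genes Ngp and Ltf were above background in no animal. Among lymphocyte markers 0 of 9 tested were called, and Cd8a, Ms4a1 and Gzmb were above background in no animal. Among red-cell markers 0 of 6 were called. The share that entering cells take in the myeloid and interferon rises was not tested.

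Of 18 tested MHC and immunoproteasome genes 5 rose and 0 fell (median 0.31, with 10 higher in the separate-channel fit), led by the immunoproteasome subunit Psmb8 (1.22 ± 0.09) and the peptide transporter Tap1 (1.13 ± 0.15).

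Of the astrocyte reactivity genes, 24 of 25 tested members rose and 0 fell, with a median of 2.22. Beside Gfap the filament proteins Vim and Nes rose by 2.68 ± 0.15 and 2.21 ± 0.18; Vim had levels of 12.12, 12.48 and 13.31 in cryolesioned animals and 10.003, 10.15 and 10.30 in controls. The iron-binding lipocalin Lcn2 rose by 2.48 ± 0.08 in the pooled fit, a size taken up again below. Of 20 homeostatic astrocyte genes 2 rose and 9 fell (median -0.44). Mfge8, a secreted bridging protein for phagocytosis, had levels of 13.56, 13.83 and 13.98 in cryolesioned animals against 14.82, 14.96 and 15.12 in controls and fell by 1.17 (SE 0.08). Sparcl1, a synapse-promoting matricellular protein, fell by 1.09 and Glul, glutamine synthetase, by 0.99. The risers were Sox9, an astrocyte transcription factor (0.76 ± 0.10), and Aqp4, the water channel of perivascular endfeet (0.72 ± 0.12). The summed level of the 20 genes was 17.62 to 18.40 in cryolesioned animals and 18.35 to 18.70 in controls, and it overlapped.

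Genes of the neuronal lists fell in part and 0 rose. Of the excitatory and pan-neuronal markers 7 of 29 fell (median -0.39), of inhibitory markers 7 of 20 (-0.35), of synaptic vesicle and release genes 8 of 20 (-0.47) and of ion channels 6 of 24 (-0.39). With sex as a covariate 4, 2, 6 and 5 members of these lists fell, and 17, 11, 13 and 13 in the separate-channel fit. Over all features 1128 fell with sex as a covariate and 4709 in the separate-channel fit, against 1724 in the main fit. Stx1a, the syntaxin of synaptic vesicle fusion, had levels of 10.57, 10.93 and 11.43 in cryolesioned animals against 11.66, 11.97 and 12.31 in controls and fell by 1.29 (SE 0.06, adjusted p = 0.00025). Kalrn, an exchange factor of dendritic spines, changed by -1.48, and the cortical projection neuron factor Tbr1 by -0.98. Cort, cortistatin of an interneuron class, fell by 1.10 and Calb1, calbindin, by 1.01. Of channels, Scn1a (-0.92), Kcnh3 (-0.91) and Cacna2d1 (-0.84) fell most. The summed level of the excitatory and pan-neuronal markers was 17.88 to 18.60 in cryolesioned animals and 18.23 to 18.94 in controls. For striatal markers, which would show a deeper dissection, 0 of 12 were called (median -0.11), but their medians on the 2 mixed sides were opposite, -0.55 on the floxed-lesion side and 0.31 on the deficient-lesion side.

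Immediate early genes moved in both directions. Of 28 tested members 13 rose and 4 fell (median 0.60), and with sex as a covariate 14 rose and 1 fell. In the separate-channel fit only 9 rose and 4 fell, with a median of 0.26. Ccn1, a matricellular growth factor response gene, rose by 2.03 ± 0.23, and the stress-induced transcription factors Maff and Atf3 by 1.90 ± 0.25 and 1.80 ± 0.25. Nr4a2 fell by 1.08 and Egr1 by 0.70. The activity genes Fos (1.46 ± 0.27) and Arc (1.24 ± 0.14) were called higher while their states overlapped: Arc had levels of 11.40, 12.87 and 13.93 in cryolesioned animals and 11.26, 12.53 and 13.97 in controls. In the list for injured and regenerating neurons 8 of 20 rose and 1 fell (median 0.52). The enzyme Ecel1 rose by 1.50 ± 0.15, Gal, the neuropeptide galanin, by 1.14 ± 0.28 and Sox11, a transcription factor of regenerating neurons, by 0.68 ± 0.12. Sprr1a, a marker of axotomised neurons, was above background in 8 of 8 cryolesioned animals and 0 of 8 controls, at mean levels of 6.66 in cryolesioned animals and 6.02 in controls, at least 1.55-fold (adjusted p = 0.0061).

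In the oligodendrocyte precursor list 0 of 14 rose and 3 fell (median -0.13), among them the chondroitin sulfate proteoglycan Cspg5 (-0.93). In the myelin list 2 of 17 rose and 2 fell (median -0.40, and -0.77 with sex as a covariate), and 3 rose and 8 fell in the separate-channel fit. The protease Klk6 was 1 of the 2 that rose, at 9.30, 10.12 and 11.38 in cryolesioned animals and 7.77, 8.36 and 8.93 in controls (2.11 ± 0.18). The other was transferrin, Trf, at 1.16 ± 0.21, and the 2 that fell are not named here.

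Vessel genes changed in both directions. Of 24 endothelial and mural markers 3 rose and 3 fell (median 0.18), and 7 rose and 6 fell in the separate-channel fit. Tagln, a contractile protein of mural cells and myofibroblasts, rose by 2.18 ± 0.17, while Abcb1a, the drug efflux pump of the blood-brain barrier, fell by 0.66. In the vascular activation list 9 of 24 rose and 1 fell (median 0.48). Ch25h, the enzyme that makes 25-hydroxycholesterol, rose by 3.14 ± 0.23, Thbs1, thrombospondin-1, by 1.74 ± 0.26 and Ptgs2, cyclooxygenase-2, by 1.57 ± 0.34. Cd34, a sialomucin of endothelium, had levels of 11.27, 11.72 and 11.94 in cryolesioned animals and 12.38, 12.87 and 13.29 in controls and fell by 1.35 (SE 0.10).

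Matrix, fibroblast and meningeal genes rose in 16 of 33 cases with 0 falling (median 0.56). Beside Timp1 they included Tgfbi, a secreted adhesion protein (2.71 ± 0.21), Adamts1, a proteoglycan-cleaving protease (2.53 ± 0.26), Anxa2, annexin A2 (2.25 ± 0.20), Serpinh1, the collagen chaperone (1.37 ± 0.07), and the collagens Col4a1 (1.42 ± 0.31) and Col3a1 (1.21 ± 0.17). Mmp3, stromelysin-1, was above background in 8 of 8 cryolesioned animals and 0 of 8 controls, at mean levels of 8.01 in cryolesioned animals and 5.90 in controls, at least 4.06-fold (adjusted p = 0.0028). In the perineuronal net list 3 of 13 rose and 3 fell (median -0.02). Has2, a hyaluronan synthase, rose by 0.81 ± 0.12, whereas Bcan, brevican of the net, had levels of 12.89, 13.42 and 14.06 in cryolesioned animals against 14.45, 14.56 and 14.66 in controls and fell by 1.28 (SE 0.12).

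In the stress, cell death and replication lists rises outnumbered falls. The metallothionein, heme and oxidative stress list had 10 of 29 members higher and 0 lower (median 0.26), with Mt2, a zinc-binding metallothionein, at 1.87 ± 0.30, Cp, the copper-carrying ferroxidase ceruloplasmin, at 1.25 ± 0.13 and haptoglobin, Hp, at 1.18 ± 0.13. Of 24 heat shock and unfolded protein genes 6 rose and 0 fell (median 0.26), with the small heat shock proteins Hspb1 (1.59 ± 0.26) and Hspb8 (1.14 ± 0.08) and the cochaperone Bag3 (1.24 ± 0.22) leading. In the cell death list 13 of 27 rose and 1 fell (median 0.35): Cdkn1a, the p53 target p21, by 1.85 ± 0.40, the inflammasome adaptor Pycard by 1.66 ± 0.12, the death receptor Fas by 1.30 ± 0.08 and Casp4, the mouse sensor of the noncanonical inflammasome, by 1.07 ± 0.06. The survival gene Bcl2 fell by 0.38. DNA replication and mitosis genes rose in 17 of 28 cases with 0 falling (median 0.66). Uhrf1, which maintains DNA methylation at replication, had levels of 8.15, 8.92 and 9.17 in cryolesioned animals and 6.60, 6.72 and 7.13 in controls (2.08 ± 0.13), and the helicase subunit Mcm3 rose by 1.69 ± 0.08. The medians of this list on the mixed sides were 0.58 on the floxed-lesion side and 0.64 on the deficient-lesion side.

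Of 22 glycolysis and lactate genes 4 rose and 2 fell (median -0.28), the hexokinases Hk3 (1.41 ± 0.13) and Hk2 (1.03 ± 0.14) rising and the astrocyte aldolase Aldoc (-0.86) falling. Of 23 oxidative phosphorylation genes 0 rose and 5 fell (median -0.26). With sex as a covariate 2 fell and with median centring in place of loess 0. Of 26 ribosomal protein genes 4 rose and 0 fell (median 0.09), and of 27 cholesterol and lipid genes 6 rose and 2 fell (median 0.28), with the lipid droplet protein Plin2 at 1.64 ± 0.15. The glucocorticoid-induced list had 3 of 14 higher and 2 lower (median 0.25), including Tsc22d3, a classic glucocorticoid target, which fell by 0.72. Among 32 secreted Wnt, TGF-beta and growth factor genes 7 rose and 4 fell (median -0.03). Hbegf, a ligand of the epidermal growth factor receptor, rose by 2.28 ± 0.38, the binding protein Igfbp3 by 1.41 ± 0.23, and Igf2, insulin-like growth factor 2 of meninges and choroid plexus, fell by 0.83.

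Pooling the genotypes added calls that neither genotype gave alone. The genotype contrasts share all arrays with the pooled one; they called 803 features in Il6-deficient and 896 in floxed animals, of which 801 and 875 were called when pooled. Called in both genotypes were 498 of the 3492, and 2314 in neither, 1106 of them higher and 1208 lower. The median SE was 0.0874 for the pooled contrast and 0.124 for each genotype. The strongest of the genes called only when pooled were Rhoj, a small GTPase of endothelium (2.42 ± 0.36), Glra1, a glycine receptor subunit (2.37 ± 0.41), Adam8, a membrane protease of leukocytes (2.23 ± 0.36), and Sphk1, sphingosine kinase (2.22 ± 0.56). Rhoj had levels of 8.63, 9.83 and 11.05 in cryolesioned animals and 7.23, 7.34 and 7.71 in controls without overlap, and its genotype estimates were 2.45 in Il6-deficient animals (adjusted p = 0.062) and 2.40 in floxed animals (adjusted p = 0.060). No feature was called for the interaction of genotype and cryolesion at an adjusted p below 0.05 in limma (0 of 29362, 972 or 3.31% at an unadjusted p below 0.05), so no gene is reported as responding differently in the genotypes. That count does not show that they respond alike.

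**Figure D4:**
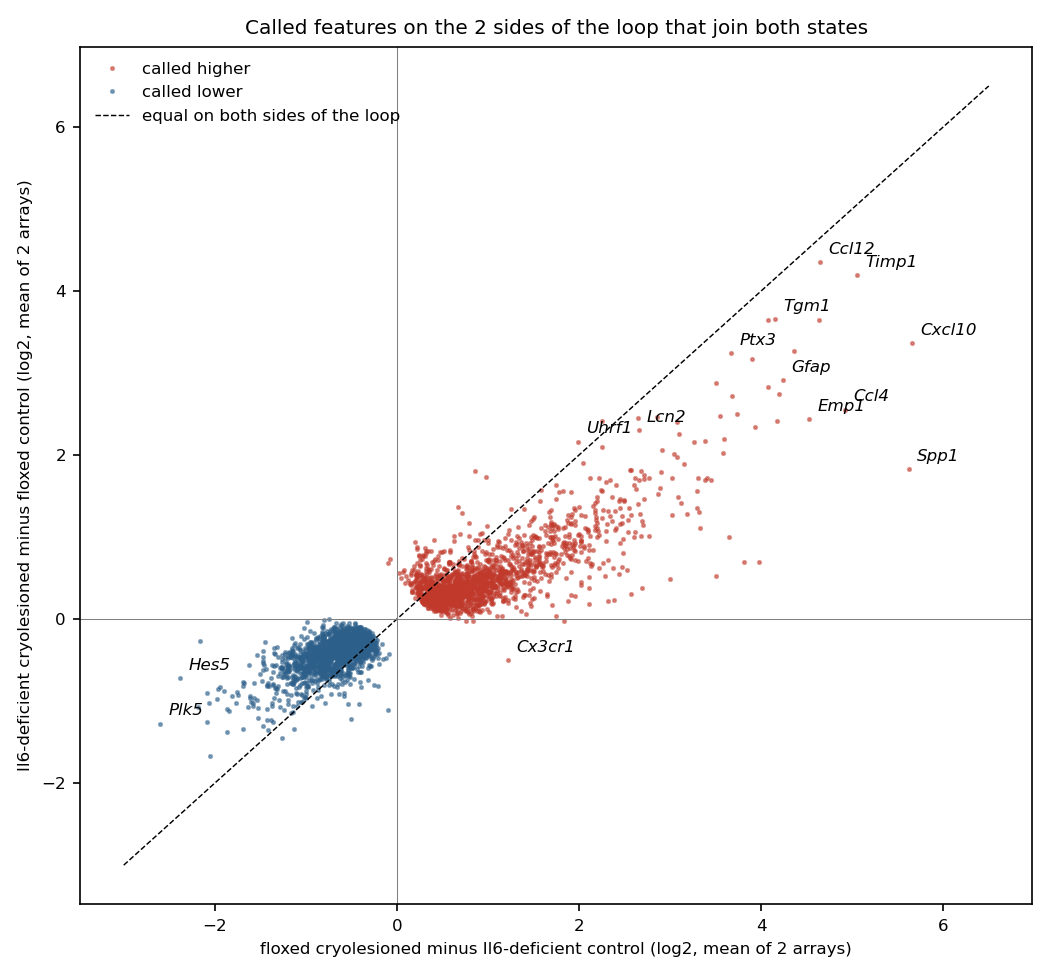
Log2 difference of each called feature on the floxed-lesion side (horizontal, floxed cryolesioned minus Il6-deficient control) and on the deficient-lesion side (vertical, Il6-deficient cryolesioned minus floxed control), each the mean of 2 arrays. The dashed line marks equality. The features called higher have a median of 0.75 on the horizontal and 0.41 on the vertical axis, and those called lower -0.63 and -0.38.

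The 2 sides that set the pooled estimate share no animal and no array, so each could be set beside the other. Over 29360 features their differences had a Pearson correlation of 0.75 and a Spearman correlation of 0.66, a description across features that are not independent replicates. The largest changes were ranked among named genes, of which 43.3% were higher on the floxed-lesion side and 43.1% on the deficient-lesion side. Of the 100 largest rises on the floxed-lesion side (median 2.86), 97 were higher after cryolesion on the deficient-lesion side too, with a median of 1.62 there. Of the 100 largest falls on the floxed-lesion side (median -1.47), 96 were lower on the other, with a median of -0.78. Taken from the deficient-lesion side, 98 of 100 rises (median 1.72) and 100 of 100 falls (median -0.96) kept their direction on the floxed-lesion side, at medians of 2.67 and -1.23.

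The response was larger on the floxed-lesion side. Features called higher had a median of 0.75 on it and 0.41 on the deficient-lesion side, and features called lower -0.63 and -0.38. Ccl4 ratios were 4.90 and 4.94 on the floxed-lesion side against 2.54 and 2.57 on the deficient-lesion side. The list medians followed, at 2.72 and 1.71 for astrocyte reactivity, 1.48 and 0.71 for interferon-stimulated genes, 1.08 and 0.44 for the IL-6 and STAT3 list and 1.00 and 0.18 for immediate early genes (floxed-lesion side, then deficient-lesion side). Floxed cryolesioned animals 1 and 2 were above the other 6 cryolesioned animals in 200 of the 391 rises of at least 2-fold (51.2%) and in 7.39% of all features. The rises were called from an estimate that holds this pair but not the lesion-side animals among the other 6. Part of the 51.2% is therefore fixed by that selection. The genotype of the lesioned animal, the genotype and sex of its control, and the row of the slide differ together between these sides and cannot be told apart. Without the floxed-lesion side 131 features were called and the median of the 391 rises was 1.15. Without the deficient-lesion side 347 were called and that median was 1.75. In those fits the same-state arrays carry part of the estimate, and all 3492 calls kept their sign. Each fit keeps the other mixed side, from which the calls were also made, so this is not a separate check.

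The 8 animals that did not enter the estimate gave the same direction for nearly all calls. Taken as levels, 4 cryolesioned animals of the lesion side minus 4 controls of the control side, the difference had the sign of the call for 1746 of 1768 rises and 1703 of 1724 falls, with medians of 0.45 and -0.39. For the changes of at least 2-fold these counts were 389 of 391 rises (median 1.29, against 1.42 in the animals that set the estimate) and 84 of 84 falls (-0.94, against -1.21). Over all 29362 features 76.8% had the same sign. A fit to these 8 animals alone, with the array as a random block, called 685 features, 527 higher and 158 lower, and 0 of them were called in the opposite direction by the pooled contrast. It shared 476 rises with the pooled contrast (90.3% of its own and 26.9% of the pooled rises) and 113 falls (71.5% and 6.55%). In this set the states lie on different arrays and slide rows, and these cannot be told apart from the lesion.

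**Figure D5:**
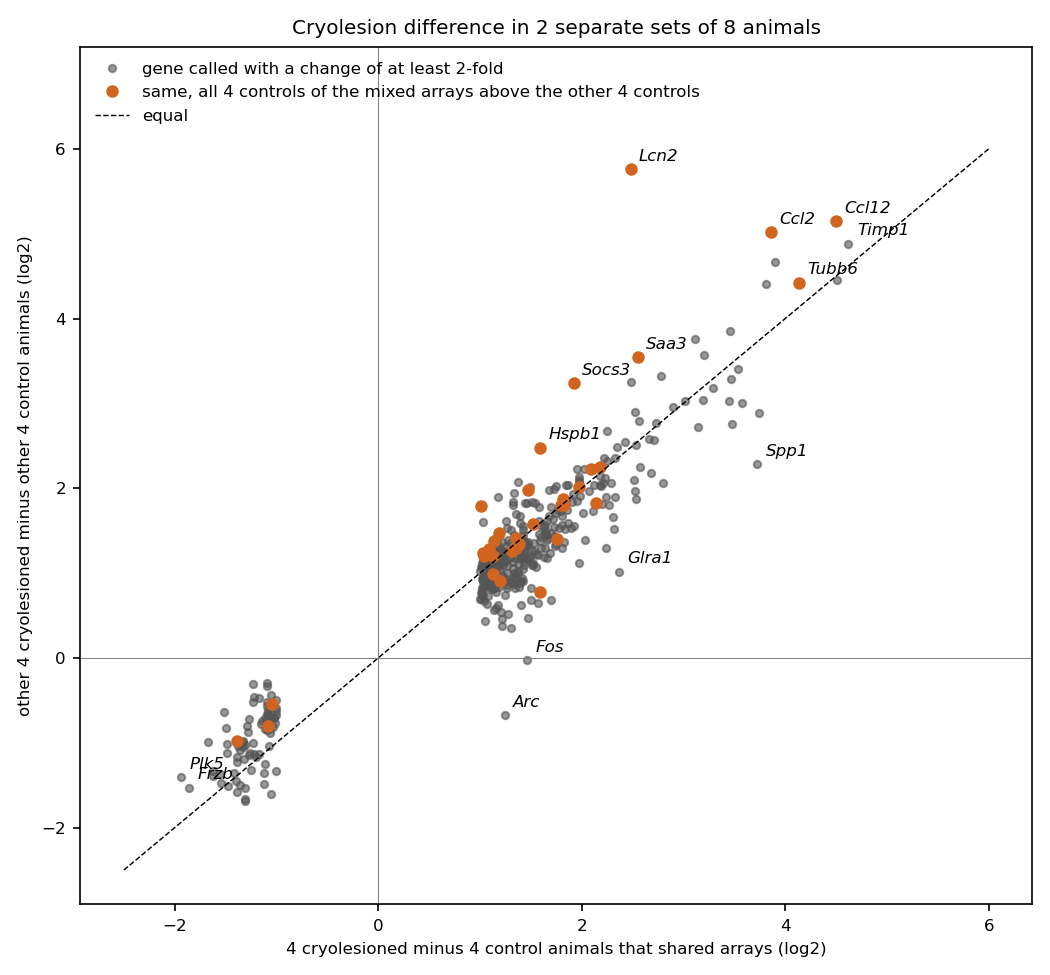
Log2 difference, cryolesioned minus control, of the 425 named genes called with a change of at least 2-fold, in the 8 animals of the mixed arrays (horizontal) and in the other 8 animals (vertical). The dashed line marks equality, and orange points are the 34 genes, 31 rises and 3 falls, for which all 4 controls of the mixed arrays were above the other 4 controls. Lcn2 lies at 2.48 and 5.76, and Fos and Arc lie at 1.46 and -0.03 and at 1.24 and -0.68.

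For some injury genes the size of the response depended on the animals used. Lcn2 had levels of 10.41, 12.16 and 12.68 in cryolesioned animals against 6.58, 7.56 and 9.39 in controls. Its difference was 5.76 in the other 8 animals against 2.48 in those of the mixed arrays. Controls on the mixed arrays averaged 8.64 and controls on the control side 6.70, while cryolesioned animals averaged 11.12 on the mixed arrays and 12.46 on the lesion side. Ccl2 differed in the same way, 3.86 on the mixed arrays against 5.02 in the other animals, as did Socs3 (1.92 against 3.24) and Hspb1 (1.59 against 2.48). Other rises were larger on the mixed arrays, among them Spp1 (3.72 against 2.28 in the other animals), Glra1 (2.37 against 1.02), Ptgs2 (1.57 against 0.64), Ecel1 (1.50 against 0.68) and Col3a1 (1.21 against 0.55). In 35 of the 391 rises of at least 2-fold, unnamed probes included (8.95%), all 4 controls hybridised beside a lesioned animal were above the other 4 controls, against 1.04% of all features. The cause was not tested.

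Among the activity-regulated genes called higher, 4 described here were not higher in the other 8 animals. Fos differed by 1.46 on the mixed arrays and by -0.03 in the other 8 animals, Arc by 1.24 and -0.68, Junb, an AP-1 subunit, by 0.92 and -0.42, and Npas4, an activity-dependent transcription factor, by 0.73 and -1.02. Their calls rest on the 8 animals of the mixed arrays. Other members of the same list were higher in both sets, with Ccn1 at 2.03 and 1.39, Maff at 1.90 and 1.83, and Atf3 at 1.80 and 1.57.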

How the data were processed

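Arrays were scanned in red (Cy5) and green (Cy3) and quantified in Agilent Feature Extraction 10.7.3.1, per the file headers. What the authors deposited for each spot is a median intensity and a local background per channel, before normalization. Median signals were used because the files hold no mean signal, which the planned design assumed. The log10 ratio that the authors deposited in the same files, and the processed intensity beside it, served as a check and an alternative. The value table holds log2 ratios that the authors deposited without stating their normalization. Its columns follow red over green, not the inverse (r of 0.967 to 0.977 with the ratios used here, slopes of 1.12 to 1.26, column medians of -0.0045 to 0.0050), and the reason for the slopes is unknown.

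Background was corrected with normexp (offset 50) and ratios were normalized by loess within arrays. Control spots and spots marked as outliers (115 to 194 per array) were left out, and 0 spots were saturated. Probes well above background in at least 4 of 16 channels were kept, 37352 of 56605. Probes were named by RefSeq accession through a gene table of GRCm38.p6 (32994 named, 23611 not), and the probe with the highest mean intensity stood for a gene. This left 29362 features, 16852 of them named genes. Ratios were fitted with limma 3.58.1 (R 4.3.3) with 3 group terms and a dye term over all 8 arrays, which leaves 4 residual degrees of freedom, and p-values were adjusted by Benjamini-Hochberg over all features. Levels of single animals are log2 intensities after loess and Aquantile between arrays. They compare animals for 1 probe, never probes with each other. A gene above background in no animal of a state has only a bound on its fold: the mean of the brighter state against, for each dim animal, its lowest level among probes well above background or the probe's own level where that is higher.

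Arrays came from 1 slide and 1 scan. The labels call the animals of a group biological replicates, and the number of arrays limits the precision. Animals with the same replicate number in different groups correlated above 0.1 in 11 of 24 pairs. Their correlations ran from -0.25 to 0.53 with a median of 0.06, against a median of -0.02 for other pairs. Whether the numbers pair animals is not settled by this, and the main fit did not use them. The fit was also run on simulated ratios with known changes. That run came after the main fit and used its spread, and its outcome is not given here.

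Genes were named by a rule: the 20 largest rises and falls with 1 sign on the 4 mixed arrays, up to 4 rises and 3 falls of each list, the 8 largest called in neither genotype, Il6, sex-linked genes and list members whose call an alternative ended. Further list members were picked after their values were seen. The members and lists were chosen with earlier results of these data known. Upstream sequences come from RefSeq, and 592 of 797 genes looked up have one in the table. Alternatives covered background, normalization, filters, probe choice, covariates, single arrays and sets of animals. Results for some genes are not reported here.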

Additional observations from a re-analysis of the deposited data

Results flagged for a closer look

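In 6 sets of 8 levels, out of 294 looked at for the genes described, 1 animal lay far from the others of its state. The measure was its gap to the nearest animal as a share of the whole range, compared with 0.526, which chance passes in about 1 of 20 sets. Floxed control 3, on the deficient-lesion side, was the highest control for Cxcl10 (ratio 0.630, level 8.40 against 6.95 for the next) and for Abcb1a (0.632). Floxed control 2, on the control side, was the lowest control for Hmox1 (0.791, 6.97 against 8.20) and Gpr17 (0.567), and the highest for Fcrls (0.622). Among cryolesioned animals, Il6-deficient cryolesioned animal 1 was highest for Apoe (0.681, 16.3 against 15.6). The Cxcl10 ratio was 1.91 on the array of floxed control 3 and 4.82 to 5.87 on the other 3 mixed arrays. No cause was tested.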

How the results depend on the processing

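The pooled count of 3492 calls stayed within 1.5 times under 11 of the 17 settings other than leaving out 1 array, among them no filter on dim probes and the authors' value table. It fell to 445 (219 higher, 226 lower) with only the 4 mixed arrays, and to 772 (436 higher, 336 lower) with the replicate block. That block leaves 2 residual degrees of freedom and rests on replicate numbers that were not shown to pair animals. It was 8420 (3711 higher, 4709 lower) in the separate-channel fit. Median centring gave 981 higher, the scanner software's processed signals 1112 lower and sex as a covariate 1128 lower. Leaving out 1 array gave 928 to 5179 calls, 607 to 2315 higher and 308 to 2864 lower. Of settings added after the data were seen, 131 were called (112 higher, 19 lower) without the floxed-lesion side, 347 (289 higher, 58 lower) without the deficient-lesion side, and 685 (527 higher, 158 lower) in the other 8 animals. Of 147 genes described, 96 were called in every fit without 1 array and 58 under each of the 21 settings not added later that tested them, while 81 lost their call with only the 4 mixed arrays and 48 with the replicate block. In the other 8 animals Arc read -0.68, Fos -0.029, Junb -0.42 and Npas4 -1.02, the opposite sign to their calls, and 0 of the others changed sign under any setting tried. The dimmer Il6 probe differed by 0.17 (exact permutation p = 0.000466, again without regard to array, dye or genotype). Causes were not tested. With 4 residual degrees of freedom and 4 animals a state behind each estimate, small changes and dim probes are poorly resolved.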
